A study of Ovis aries with 15 samples.

Results

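The antimicrobial and acute phase proteins of milk followed here were 7 of the 24691 features in the deposited table, and 7 of 7 were found by their symbols: LPO (lactoperoxidase), LOC554321 (lactoferrin), LCN2 (lipocalin 2), SAA1 (serum amyloid A), HP (haptoglobin), S100A8 and S100A12. They were selected on measured values, namely their change between late pregnancy and lactation and the levels of 1 lactation pool that stood apart, so their own changes between states and the values of that pool are given as a description without a test. RNA was sequenced from mammary needle biopsies taken from Romney ewes that were 2 years old and in their first pregnancy and lactation, in late pregnancy (day 135 of gestation; 9 libraries) and in lactation (day 15 post partum; 6 libraries). The paper describes ewes biopsied in late pregnancy and then again in lactation. Each library was 1 pool of RNA from several ewes, which the sources used here put at 3 in late pregnancy and at either 2 or 3 in lactation. The pools were also labelled by the pasture that the ewes' own dams had received in early gestation: ad libitum (HM), maintenance (MM) or sub-maintenance (LM), all followed by maintenance feeding later in gestation. Each dam feed group held 3 late pregnancy and 2 lactation pools, and the ewes themselves were all managed and fed alike. Milk and the health of the udder were not analysed here. A pooled biopsy mixes all cell types of the gland, so fewer cells of a type and less RNA per cell cannot be told apart.

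Milk carries proteins that protect the udder and the newborn as well as feeding it. Lactoperoxidase is a haem enzyme that uses hydrogen peroxide to oxidise thiocyanate into a product that harms bacteria, while lactoferrin and lipocalin 2 withhold iron, the latter by binding bacterial siderophores. Serum amyloid A and haptoglobin are acute phase proteins best known from the liver, where cytokines such as IL-6, IL-1 and TNF raise them, and a form of serum amyloid A is also made in the mammary gland. Haptoglobin binds free haemoglobin. S100A8 and S100A12 are calcium-binding proteins stored in large amounts in neutrophils.

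In the table of the authors the 7 genes had the following positions in the sheep genome (build Oar_v3.1 according to the submitters' processing notes, whereas the paper names a later version). LPO covered 8765291 to 8795398 on chromosome 11, LOC554321 covered 52870333 to 52900317 on chromosome 19, and LCN2 covered 8024569 to 8028425 on chromosome 3. SAA1 covered 25756970 to 25775468 on chromosome 21 with 2 annotated transcripts, and HP covered 38339867 to 38346263 on chromosome 14. S100A12 (102311454 to 102312873) and S100A8 (102332168 to 102333129) were close together on chromosome 1. No feature overlapped any of the 7. The primer pair that the study designed to measure LPO transcripts by PCR is shown because LPO had the largest difference between states; each primer has 20 bases, 5′ to 3′:

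LPO forward primer: gacaactgcttccccatcat

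LPO reverse primer: cgactggtaaggtggagtgg

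Between 6471237 and 16898986 reads were assigned to genes in a late pregnancy pool, and between 9014506 and 24001031 in a lactation pool. A level is given as CPM, the reads of a gene per 1000000 reads of the TMM-scaled library size, and a log2 change is that of lactation over late pregnancy from edgeR. In the fit over all 15 libraries 13345 genes passed the filter on low counts, and 68.4% of them were called at an adjusted p under 0.05, 33.1% higher and 35.2% lower in lactation. The median log2 change of the 13345 genes was -0.03, and it was -1.94 when libraries were scaled by their size only, so values under that scaling are read relative to it. The luminal epithelial markers fixed for the tissue (14 genes, among them the caseins) summed to 76784 to 151670 CPM in late pregnancy and to 1416092 to 1758386 CPM in lactation. The TMM-scaled size of every lactation library was smaller than its reads. CPM is therefore not a share of reads, and a sum can exceed 1000000. Milk protein genes made up most of both sums. Of the 14 markers 12 were called higher in lactation, while KRT8 (0.13) and CDH1 (-0.11) were not called. Of the 7 members 5 passed the filter, and S100A8 and S100A12 did not.

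LPO was nearly silent in late pregnancy and was among the more abundant transcripts in lactation. In the 9 late pregnancy pools it had from 0.418 CPM (10 reads) to 10.0 CPM (217 reads), with a median of 1.82 CPM. In lactation it had 2689 and 2289 CPM in the LM pools, 1467 and 1522 CPM in the MM pools, and 725.5 and 1365 CPM in the HM pools. All 6 lactation pools were above all 9 late pregnancy pools, and the pool HM lactation 1 was the lowest in lactation. The log2 change was 9.13 ± 0.51 (SE), from a mean of 2.88 ± 3.23 CPM (SD, n = 9) to 1676 ± 703 CPM (SD, n = 6). With scaling by library size only the log2 change was 7.24, or 9.17 relative to the all-gene median found with this scaling. Among the late pregnancy pools LPO was 23.9 times higher in the highest than in the lowest, compared with 3.71 times among the lactation pools.

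The other peroxidase genes beside LPO on chromosome 11 also rose in lactation, but almost without spliced reads. MPO (myeloperoxidase, an enzyme of neutrophil granules) lies 1352 bases from LPO, and it had 9 reads in all late pregnancy pools and 590 in the lactation pools. Only 2 of those 590 reads, 0.339%, crossed an exon-exon junction, compared with 51.9% of LPO reads and a median of 52.4% over 9753 genes with at least 100 reads in each state. EPX (eosinophil peroxidase), 63896 bases on the other side, had 224 reads in lactation, of which 2 crossed a junction. The log2 changes were 7.89 for MPO (adjusted p = 9.3e-13, edgeR) and 4.10 for EPX (adjusted p = 7.8e-11), and both rested almost wholly on reads that lay within single exons. MPO was lowest in HM lactation 1 (2.86 CPM, compared with 14.1 to 15.6 CPM in the other 5 pools), the pool in which LPO was lowest too. In reads, MPO came to 0.394% of LPO in HM lactation 1 and to 0.555% to 1.15% in the other pools. Whether these reads belong to transcripts of LPO was not tested.

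**Figure D1:**
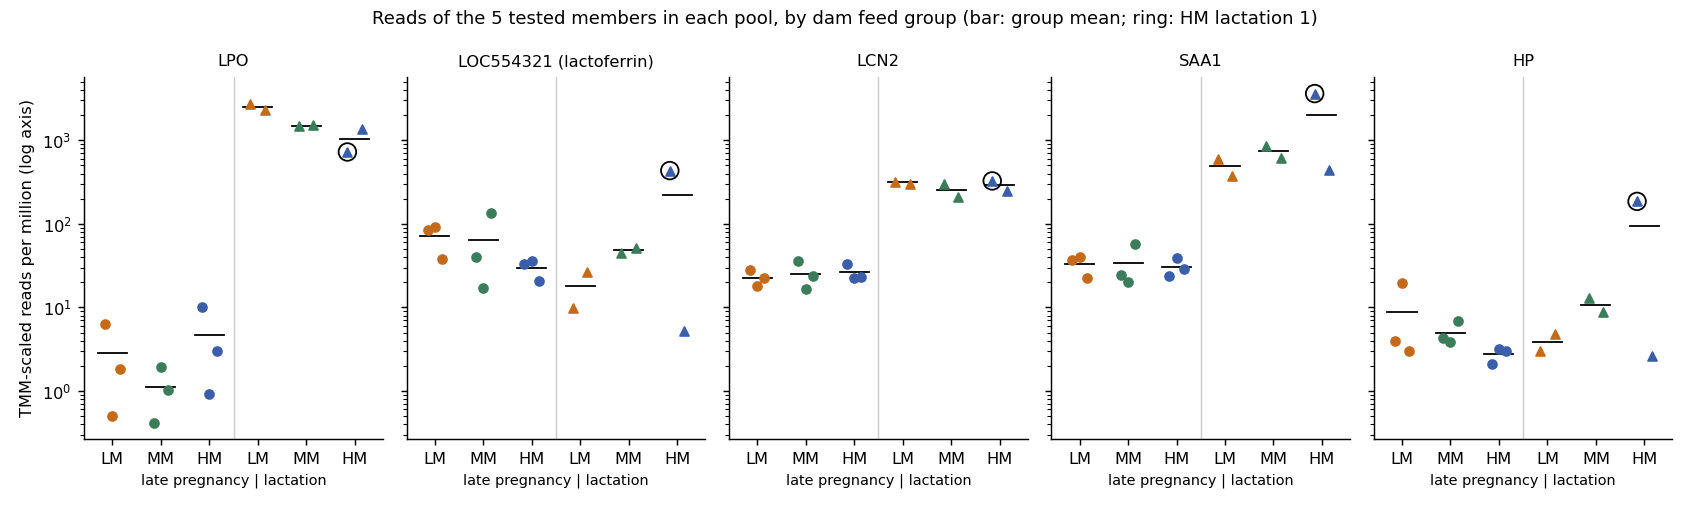
CPM (TMM-scaled, log axis) of LPO, LOC554321, LCN2, SAA1 and HP in each pool, with the dam feed groups of late pregnancy (circles) left of the grey line and those of lactation (triangles) right of it; bars are group means and the ring marks HM lactation 1. LPO, LCN2 and SAA1 were higher in every lactation pool than in any late pregnancy pool, and in HM lactation 1 LOC554321, SAA1 and HP were far above the other 5 lactation pools.

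LCN2, a binder of bacterial siderophores, differed more between the states than among the pools of either. Its 9 late pregnancy pools lay between 16.7 and 35.9 CPM, with a median of 22.9 CPM. The lactation pools had 321 and 304 CPM (LM), 298 and 212 CPM (MM), and 327 and 249.8 CPM (HM), so that HM lactation 1 was the highest by a factor of only 1.02. The states did not overlap, and the log2 change was 3.52 ± 0.15 (SE), from 24.8 ± 6.48 CPM (SD, n = 9) to 285 ± 45.1 CPM (SD, n = 6). Leaving out any 1 of the 15 libraries kept this change between 3.46 and 3.60. Of the 5 members that could be fitted, LCN2 thus varied least in lactation, with a coefficient of variation of 15.8%, compared with 41.9% for LPO, 116% for SAA1, 175% for LOC554321 and 202% for HP.

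The level of lactoferrin (LOC554321) in lactation was set by 1 pool. In late pregnancy it ranged from 17.1 to 136 CPM with a median of 38.0 CPM. In lactation it had 9.77 and 26.6 CPM in the LM pools, 45.2 and 51.7 CPM in the MM pools, 435 CPM in HM lactation 1 and 5.27 CPM in HM lactation 2. The other 5 lactation pools were within or below the range of late pregnancy, and HM lactation 1 was 8.40 times the next highest. The log2 change was 0.73 ± 0.66 (SE) over all libraries and -0.94 ± 0.50 (SE) without HM lactation 1. It was -0.45 in the fit of quantile-normalized RPKM, where the median of all genes was -0.05. With scaling by library size it was -1.08, which was 0.85 above the median of all genes there, so relative to other genes its sign did not turn with that scaling. The direction of lactoferrin between the states thus changed without HM lactation 1 and with quantile normalization.

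SAA1 was higher in every lactation pool than in late pregnancy, and highest by far in HM lactation 1. Late pregnancy pools had 20.2 to 57.1 CPM with a median of 29.1 CPM. The lactation pools had 599 and 376 CPM (LM), 857 and 618 CPM (MM), 3630 CPM in HM lactation 1 and 445 CPM in HM lactation 2. The states did not overlap with or without HM lactation 1, whose value was 4.23 times the next highest. The log2 change was 5.06 ± 0.43 (SE) over all libraries and 4.16 ± 0.22 (SE) without that pool.

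The reads of SAA1 also differed in kind between the states. In late pregnancy 593 of 6013 exon reads (9.86%) crossed an exon-exon junction, compared with 20459 of 40773 (50.2%) in lactation. Single pools spanned 5.38% to 15.3% in late pregnancy and 47.9% to 53.8% in lactation, and these ranges were far apart. The difference of 40.3 percentage points was reached or passed by 2 of the 9753 genes with at least 100 reads in each state, SAA1 included, and the median absolute difference over those genes was 2.499 points. For LPO, LOC554321, LCN2 and HP the shares of the states differed by 6.31, -0.795, 0.0899 and 0.840 points (lactation minus late pregnancy). Counted by junction reads alone, SAA1 went from 3.23 ± 2.28 CPM (SD, n = 9) to 539 ± 611 CPM (SD, n = 6), and its log2 change was 7.31 ± 0.50 (SE). Reads placed uniquely made up 91.2% of SAA1 reads in late pregnancy and 89.2% in lactation, and the rest could also belong to a similar gene.

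**Figure D2:**
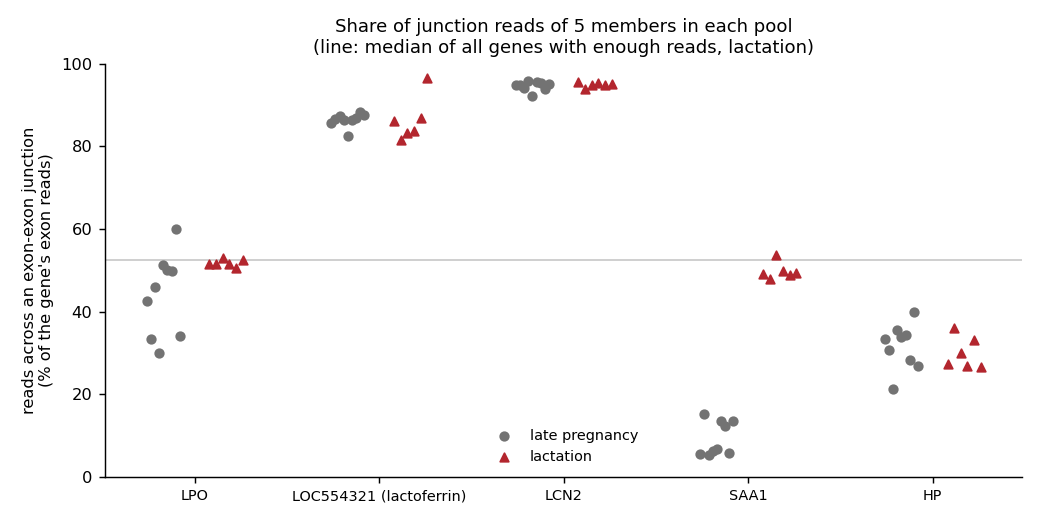
Share of exon reads that cross an exon-exon junction (percent) for 5 members in each late pregnancy (grey circles) and lactation (red triangles) pool; the line is the median over all genes with at least 100 reads in each state, in lactation. SAA1 lay at 5.38% to 15.3% in late pregnancy and at 47.9% to 53.8% in lactation, while the states overlapped for the other 4 genes.

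Beside SAA1 on chromosome 21 are 2 features with no symbol in the table or in RefSeq, LOC101120613 (9077 bases away, 25784546 to 25808398) and LOC101121216 (47655 bases away, 25823124 to 25827107). LOC101120613 went from a mean of 1.02 CPM to 332 CPM, and LOC101121216 from 242 CPM to 2895 CPM. In HM lactation 1 they reached 1332 and 11843 CPM, whereas the highest of the other 5 lactation pools had 204 and 1626 CPM. Their reads were mostly spliced in both states, 93.3% and 95.03% for LOC101120613 and 82.8% and 81.4% for LOC101121216. In that pool LOC101121216 had 9099 RPKM, compared with 2056 RPKM for SAA1 itself. HPS5, on the other side of SAA1, had 56.5 CPM in HM lactation 1 and at most 67.5 CPM in the other lactation pools.

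HP, the haemoglobin-binding protein, was low in every library but HM lactation 1. In late pregnancy it had 2.12 to 19.4 CPM with a median of 3.81 CPM, and LM late pregnancy 2 was the highest at 2.86 times the next. In lactation it had 2.98 and 4.76 CPM (LM), 12.8 and 8.79 CPM (MM), 186 CPM in HM lactation 1 and 2.64 CPM in HM lactation 2. Without HM lactation 1 the lactation pools were all inside the range of late pregnancy. The log2 change was 2.53 ± 0.76 (SE) over all libraries and 0.26 ± 0.50 (SE) without that pool, so that the difference between states rested on it. Leaving out LM late pregnancy 2 gave 3.15.

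S100A8 and S100A12 were near the limit of detection in every library. S100A8 had 1 to 10 reads per late pregnancy pool and 0 to 4 per lactation pool, 35 and 11 reads in all. S100A12 had 1 to 13 and 0 to 4 reads, 37 and 7 in all. In lactation S100A8 had no read in 3 pools and S100A12 none in 4; a count of 0 allows up to 3 reads, which is 0.261 to 0.571 CPM in those pools and covers counting error only. HM lactation 1 had 3 reads of S100A8 (0.659 CPM) and 4 of S100A12 (0.879 CPM), the highest CPM of each in lactation, and no fold is given at such counts. S100A9 (LOC101122157), the usual partner of S100A8, was at 0.767 CPM in late pregnancy and 0.308 CPM in lactation, with no read in HM lactation 1.

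Of the 5 members tested, LPO, LCN2 and SAA1 were higher in lactation with no overlap between the states, as were 20.2% of all tested genes. This contrast chose the members, so nothing is read from the count. Compared per length, as RPKM of the authors, the order in late pregnancy was SAA1 (61.2 ± 24.1, SD, n = 9), LCN2 (55.2 ± 13.01), LOC554321 (38.1 ± 28.8), HP (6.09 ± 6.25), LPO (1.44 ± 1.54), S100A8 (0.692) and S100A12 (0.656). Of the neighbours in this order only LOC554321 and HP differed by more than the larger SD of the pair. Only 9.86% of SAA1 reads in late pregnancy crossed an exon-exon junction, compared with 94.9% for LCN2 and 86.4% for LOC554321. The place of SAA1 in late pregnancy, in this order and in the ranks below, thus rested mostly on reads that crossed no junction. In lactation the order was SAA1 (603 ± 719, SD, n = 6), LPO (252 ± 101), LCN2 (186 ± 34.01), LOC554321 (19.5 ± 34.6), HP (11.8 ± 23.9), S100A8 (0.277) and S100A12 (0.202). Of the neighbours in this order only LCN2 and LOC554321 differed beyond the larger SD of the pair. Without HM lactation 1, SAA1 (313 ± 114, n = 5), LPO (279 ± 84.7) and LCN2 (179 ± 32.4) kept this order, and SAA1 and LPO differed by less than their SD. By mean RPKM, LPO moved from rank 11161 to rank 99 of the 24691 features, LCN2 from 1032 to 130, and SAA1 from 914 to 31. RPKM divides by all reads, those of milk protein genes included, and by this measure the mean of lactoferrin was lower in lactation while its mean CPM was higher.

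HM lactation 1 was far above the other 5 lactation pools for HP, LOC554321 and SAA1, and it was the lowest for LPO. The members were chosen with that pool in view. HM lactation 1 led by a factor of only 1.02 for LCN2, and it had only 3 reads of S100A8 and 4 of S100A12. It was also the smallest lactation library, with 9014506 reads. The pool was not apart from the others in most genes: it was far above the rest (a gap to the next pool, as a share of the range, over Dixon's critical value) in 110 tested genes, 0.824%, and far below in 54, 0.405%, while HM lactation 2 was far above in 113. Of the 9200 genes with at least 20 reads in the pool, 16 had at least 2 times the highest CPM of the other 5 pools (CPM + 1). HP ranked 2nd (13.6 times), LOC554321 4th (8.26 times) and SAA1 10th (4.23 times), while LCN2 ranked 1497th (1.02 times). In the opposite direction LPO ranked 7th of 9188 genes, the lowest other pool being 1.88 times the pool.

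The 15 genes with the largest ratio in HM lactation 1 held 3 members, both neighbours of SAA1, 3 further genes with a symbol and 7 without. LOC101102714 came first, with 42.4 CPM against at most 1.90 CPM in the other lactation pools. LOC101121216 and LOC101120613, those neighbours, ranked 6th and 9th. CHI3L1, a chitinase-like glycoprotein of inflamed tissue, had 196 CPM against at most 72.0 CPM, although late pregnancy pools were higher still (227 to 363 CPM). Complement factor B (CFB) had 22.9 CPM against at most 8.46 CPM, and ceruloplasmin (CP), a copper-carrying acute phase protein, had 5.71 CPM against at most 2.03 CPM. The others were LOC101119799, LOC101122282, LOC101113546, LOC101117365, LOC101113867 and LOC101111261, which have no symbol in RefSeq; of LOC101111261 reads only 21.1% were placed uniquely.

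**Figure D3:**
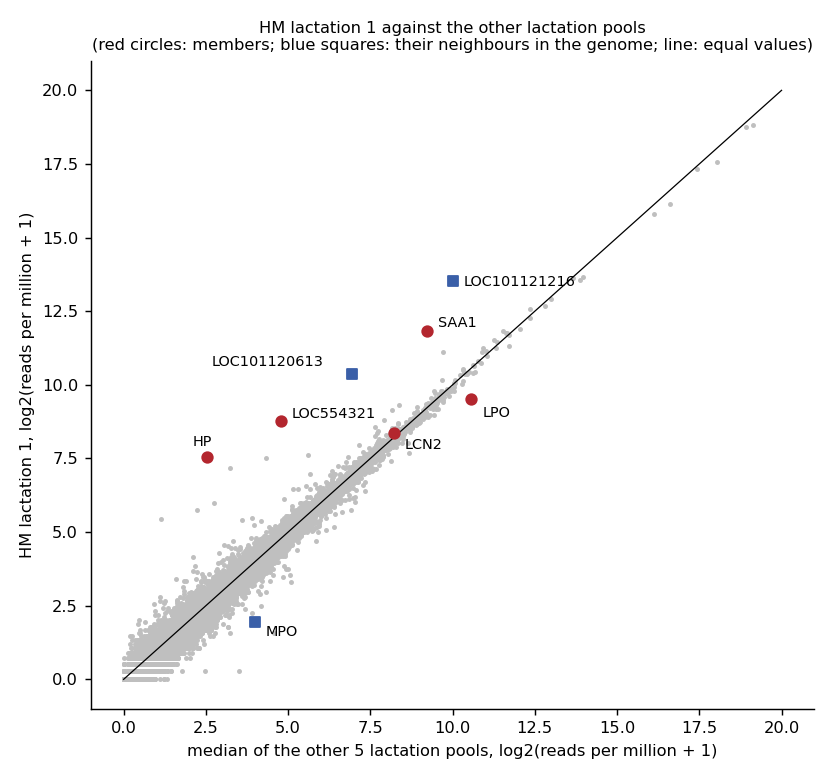
Each tested gene by its median in the other 5 lactation pools (x axis) and its value in HM lactation 1 (y axis), both log2(CPM + 1); red circles are 5 members, blue squares are their neighbours in the genome, and the line marks equal values. HP, LOC554321, SAA1, LOC101120613 and LOC101121216 lay well above the line, LPO and MPO below it, and LCN2 on it.

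Markers of blood cells did not stand apart in that pool in sum. The 26 neutrophil markers summed to 289.2 CPM there and to 226 to 289.1 CPM in the other lactation pools, compared with 1024 to 1343 CPM in late pregnancy. Most of that sum came from FCGR2B and PGLYRP1, and 10 of the 26 markers had no read in HM lactation 1: S100A9, ELANE, PRTN3, AZU1, CXCR2, MMP8, MMP9, CD177, ARG1 and OLFM4. Of these 10, PRTN3, AZU1, MMP8, CD177 and OLFM4 had no read in any lactation pool. Of the 13 neutrophil markers that were tested, 5 were highest in HM lactation 1 and 3 were lowest, with no share over all genes counted beside them. The highest were FCGR2B (185 CPM, others 96.0 to 126 CPM), NCF4 (6.15 CPM, others at most 5.83 CPM), ITGAM (2.64 CPM, others at most 2.25 CPM), NCF1 (1.32 CPM, others at most 0.761 CPM) and CSF3R (1.10 CPM, others at most 0.676 CPM). The lowest were MPO, PGLYRP1 (68.8 CPM, others at least 71.2 CPM) and CYBB (8.79 CPM, others at least 8.82 CPM). The 13 macrophage markers summed to 135 CPM (others 105 to 141 CPM), and the 13 T cell markers to 21.8 CPM, the lowest of the 6 pools (others 24.3 to 35.7 CPM). The 12 liver markers summed to 5.93 CPM (others 4.22 to 6.47 CPM), and 7 of them had no read. The sum of the luminal epithelial markers was lowest there, 1416092 CPM against 1540139 to 1758386 CPM in the others. Most of this sum came from casein genes, such as CSN2 (468720 CPM there) and CSN1S1 (444214 CPM). Of the 14 luminal markers 5 were lowest in HM lactation 1, all of them milk protein genes (CSN1S2, CSN2, LALBA, BLG and GLYCAM1). The 2 that were highest there were KRT18 (21.1 CPM, others at most 20.6 CPM) and CDH1 (150 CPM, others at most 141 CPM). The part of any of these in the values of the members was not tested.

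**Figure D4:**
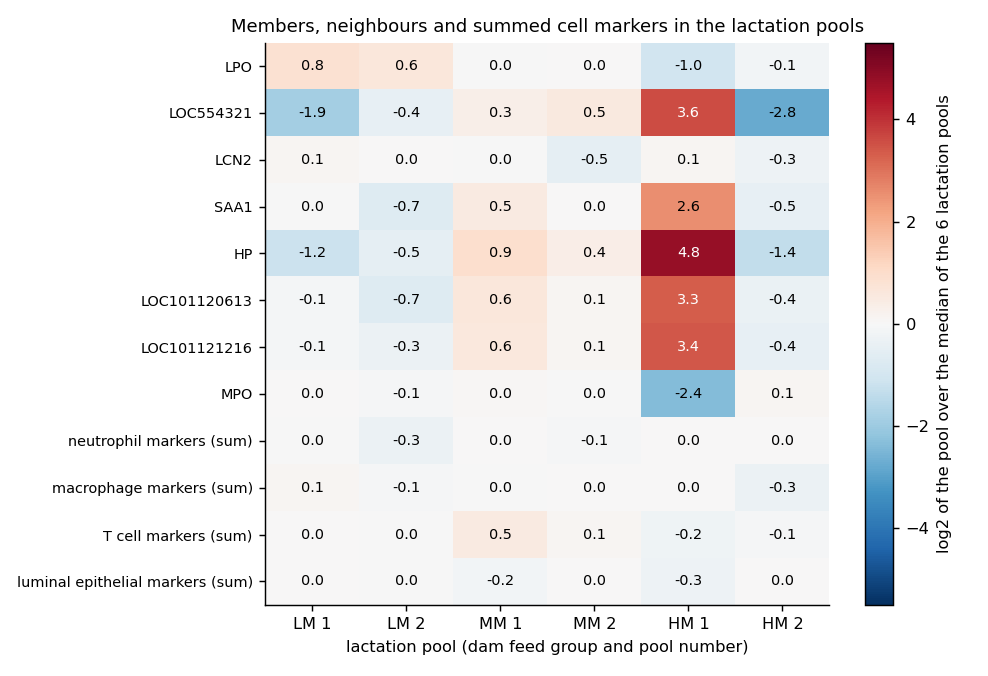
log2 ratio of each lactation pool (columns) to the median of the 6 lactation pools for the members, 3 neighbouring features and the summed CPM of 4 cell marker lists (rows). HM lactation 1 stood at 4.78 for HP, 3.60 for LOC554321, 2.58 for SAA1, -1.04 for LPO and -2.37 for MPO, and between -0.29 and 0.12 for LCN2 and the marker sums.

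Over the 6 lactation pools, log2(CPM + 1) of SAA1, HP and LOC554321 varied together (Pearson r = 0.96 for SAA1 with HP, 0.96 for HP with LOC554321 and 0.87 for SAA1 with LOC554321), and LPO varied against them (r = -0.82, -0.84 and -0.72). These values share the weight of HM lactation 1 and are a description. Over the 9 late pregnancy pools, in which that pool has no part, SAA1 and LOC554321 had r = 0.81, HP and LOC554321 0.63 and SAA1 and HP 0.53. LCN2 was not close to SAA1 there (r = -0.10). These values too are a description. LM late pregnancy 2 was far the highest for HP (19.4 CPM, next 6.79 CPM) and next to highest for LOC554321 and SAA1. Most SAA1 reads in these pools crossed no junction. Over the same 9 pools the closest non-member genes reached r = 0.96 with SAA1, 0.94 with LOC554321 and 0.91 with HP. The genes most like SAA1 in lactation were LOC101120613 (r = 1.00), LOC101121216 (0.99) and OAF (0.99). For HP they were TBXAS1, PLXNA4 and CUL4A (all r = 0.99), for LOC554321 RNGTT, PLXNA4 and TBXAS1 (0.99, 0.99 and 0.98), for LPO C11H17orf89, DNAJB2 and SND1 (all 0.99), and for LCN2 BRF1, SAFB2 and PYGO1 (all 0.98). Over all 15 libraries, where the change of state carries the correlation, the nearest genes of LPO were MOCS1, GLYCAM1 and C9 (all 0.99), those of LCN2 were TCIRG1, LOC101106651 and RASSF4 (all 0.99), and those of SAA1 were LOC101120613, PLEKHB2 and FRMPD3 (0.99, 0.97 and 0.97). Those of LOC554321 were TBXAS1, LOC101108131 (C3) and CHI3L2 (0.84, 0.83 and 0.82), and those of HP were CFB, ZNF281 and ELF4 (0.90, 0.84 and 0.84).

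Whether the feed of the dams was followed by different levels in the daughters' glands was tested within each state by edgeR. In late pregnancy no gene of 13747 was called (0%), and 571 (4.15%) had an unadjusted p under 0.05; DESeq2 called 20, none of them a member. The group means were 2.87, 1.13 and 4.65 CPM for LPO in LM, MM and HM, and 71.2, 64.3 and 29.9 CPM for LOC554321. LCN2 had 22.8, 25.4 and 26.3 CPM, SAA1 33.1, 33.97 and 30.7 CPM, and HP 8.82, 4.98 and 2.78 CPM. The adjusted p was 1.00 for each of the 5 members, and the unadjusted p ranged from 0.0436 (HP) to 0.902 (SAA1). The pools of a feed group spread about as widely as the groups: the 3 HM pools of LPO, for example, had 10.0, 0.914 and 3.03 CPM.

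In lactation 1 of 11777 genes was called for dam feed (0.00849%), LOC101113211 (adjusted p = 0.00904), and 896 (7.61%) had an unadjusted p under 0.05. The adjusted p of the members (edgeR) was 0.320 for LPO, 0.562 for HP, 0.616 for SAA1, 0.621 for LOC554321 and 0.812 for LCN2. HM lactation 1, which was in view when the members were chosen, was 1 of the 2 HM pools in this test. Nothing is therefore read from the members' p-values in this paragraph. LPO means ran from 2489 CPM in LM over 1494 CPM in MM to 1045 CPM in HM. LOC554321, SAA1 and HP had their highest pool and their lowest or next to lowest pool both within HM. The high levels of these 3 genes were thus found in 1 of the 2 HM pools and not in the other. Without HM lactation 2, so that HM lactation 1 alone stood for HM and was assumed to vary like the other groups, 20 genes were called by edgeR; for the members such a fit would test the very values that selected them, and their p-values are not given. Without LM lactation 2, 5 genes were called, and without HM lactation 1 none; DESeq2 called 36 genes over all pools, none of them a member. With no filter on low counts 391 genes were called, and for the members the same limit holds. The column headings of the table name 1 sequencing lane per library, lane 8 for both LM and lane 7 for both HM lactation pools, with 1 MM pool in each, although the labels state that every library was run over both lanes. If a library came mainly from its named lane, lane went with dam feed in lactation. The same held in part in late pregnancy, where all LM pools were named for lane 8 and the MM and HM pools for both lanes. With the named lane as a covariate, added after seeing the data, no gene was called by edgeR in either state, and LPO had an adjusted p of 0.856 in lactation. The MM pools, named for different lanes, had 1467 (lane 7) and 1522 CPM (lane 8) of LPO, but 1 pool per lane cannot separate lane from dam feed. The difference between states did not pass the test of dependence on dam feed for any of 14073 genes (0%; 913, or 6.49%, at an unadjusted p under 0.05; 21 by DESeq2), and the members had adjusted p from 0.724 to 0.908. Without HM lactation 2, 10 genes were called in that test, and without LM lactation 2 there were 2.

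Other genes of the same pathways and families were taken from lists that leave out the 7 members, and a gene is said to rise or fall where edgeR called it over all tested genes. Of all 13345 tested genes 33.1% rose and 35.2% fell, and each list's counts are to be read beside these shares. For the supply and removal of the substrates of lactoperoxidase 9 of 16 listed features were tested: 4 rose, 3 fell and 2 were not called, and the list's median log2 change was -0.15. The genes that rose were GPX1 (2.66) and GPX3 (2.35), glutathione peroxidases that remove hydrogen peroxide, SLC5A5 (1.83), the iodide carrier that also takes up thiocyanate, and XDH (1.49), xanthine oxidoreductase of the milk fat globule, which can make hydrogen peroxide. XDH went from 1429 to 2356 CPM in late pregnancy to 4676 to 6183 CPM in lactation. TST (-2.89) and MPST (-0.67), sulphurtransferases, and catalase (CAT, -0.34) fell. The dual oxidases were barely detected, DUOX2 with 31 reads in all late pregnancy pools and 2 in all lactation pools, and their partners DUOXA1 and DUOXA2 with 1 and 0 reads in lactation. With library size scaling, under which the median of all genes was -1.94, 2 of the list were higher and 6 lower.

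Of 23 listed features of other antimicrobial proteins 12 were tested, and 7 rose, 4 fell and 1 was not called, with a median of 2.00 (all tested genes: 33.1% rose and 35.2% fell). Among the genes that rose were WFDC2 (3.77), the membrane mucins MUC15 (3.42) and MUC1 (3.37), RNASE4 (2.71), BPIFA1 (2.48) and CD14 (2.13), the co-receptor for lipopolysaccharide. RNASE4, a secreted ribonuclease, went from 113 to 741 CPM, while WFDC2 stayed low (0.491 to 7.12 CPM). LBP, which hands lipopolysaccharide to CD14, rose by 1.86. The genes that fell were CHI3L1 (-1.90), PGLYRP1 (-1.61), which binds peptidoglycan, LYZ (-0.73) and RNASE6 (-0.54). MUC1 and MUC15 are proteins of the milk fat globule. Cathelicidin and defensin features in the list (CATHL3, BAC5, SC5 and SBD2) had at most 15 reads per state. Under library size scaling 4 were higher in lactation.

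Most of the other acute phase proteins tested fell or were not called, and so did most of all tested genes (4703 lower and 4223 not called of 13345). Of 28 listed features 12 were tested: SERPINA1 (alpha-1-antitrypsin) rose (1.598), 6 fell, and 5 were not called, with a median of -0.57. Those that fell were TTR (-3.15), APOA1 (LOC101117785, -1.46), A2M (-1.20), RBP4 (-1.07), SERPING1 (LOC101121454, -0.998) and ITIH4 (-0.48), all proteins of plasma. The change of TTR rested on few reads, 205 in all late pregnancy pools and 5 in all lactation pools. C3 (0.30, adjusted p = 0.0681, edgeR) and CFB (0.32, adjusted p = 0.261) were not called. Another feature that RefSeq names C3, LOC101108131, was not in the list. Its median was 303 CPM in late pregnancy and 240 CPM in the lactation pools other than HM lactation 1, which had 447 CPM. CP did not pass the filter, though its mean went from 0.206 CPM (40 reads) to 2.43 CPM (96 reads). The features beside SAA1 described above were not in the list. Of the 12 tested, 6 had their highest lactation value in HM lactation 1, among them SERPINA1 (21.1 CPM), CFB (22.9 CPM) and C3 (344 CPM), and none had its lowest. Not every lead was large: ITIH4 had 7.03 CPM there and at most 6.28 CPM in the other lactation pools. The same share over all genes was not counted, so nothing is read from the 6. Of the 12 liver markers 6 passed the filter, with the most reads for APOA1 (569 in late pregnancy and 50 in lactation) and FGB (466 and 72), while albumin had 4 and 1 reads and CYP2E1 none.

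In the S100 family 10 of 16 other features were tested, and 4 rose, 5 fell and 1 was not called (median -0.20). Of all tested genes 33.1% rose and 35.2% fell. S100A2 (1.34), S100A5 (0.71), S100A10 (0.67) and S100A11 (0.26) rose, though S100A5 was not called without LM lactation 1 (edgeR, adjusted p = 0.0883), while S100B (-1.15), S100A9 (-1.08), S100A14 (-0.86), S100A13 (-0.47) and S100A16 (-0.43) fell. S100A10 and S100A2 were far more abundant than S100A8 and S100A12, with 98.5 and 85.7 CPM in lactation.

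Of the cytokines that can induce the members only 3 of 15 listed features were tested. TNF (-1.21, adjusted p = 0.00161, edgeR) and IL1A (-0.88, adjusted p = 0.0354) fell, the latter not when any 1 of 6 libraries was left out (LM late pregnancy 2 or 3, MM late pregnancy 1, or LM, MM or HM lactation 2; adjusted p up to 0.0904), and IL33 was not called (-0.04, adjusted p = 0.860). IL6 had 7 reads in all late pregnancy pools and 4 in all lactation pools, and IL17A had none. The receptors and signalling genes behind these cytokines were better expressed: 38 of 41 were tested, 19 rose, 7 fell and 12 were not called (median 0.21). Of all tested genes 33.1% rose and 35.2% fell. IL1R1 (2.13), LIFR (2.02), LY96 (1.76), IL6R (1.53), SOCS3 (1.40) and MYD88 (1.39) rose most, and JAK1, the kinase behind IL-6 type receptors, went from 229 to 523 CPM. STAT3, which carries the IL-6 signal, was not called (-0.02, adjusted p = 0.673), nor was CEBPB (-0.06). With scaling by library size none of the 38 was higher and 34 were lower in lactation, relative to an all-gene median of -1.94.

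For receptors and partners of the member proteins 12 of 14 features were tested, and 3 rose, 4 fell and 5 were not called (median -0.11). Of all tested genes 33.1% rose and 35.2% fell. LRP2 (megalin), an endocytic receptor that takes up lipocalin 2 and lactoferrin among many ligands, fell by 5.56 on the log2 scale (edgeR, adjusted p = 5.9e-17), from 309 to 6.30 CPM, with no overlap between the states. SLC22A17, the other receptor named for lipocalin 2, fell too (-1.47), as did S100A9 (-1.08) and SCARB1 (-0.22). ASGR1 (1.08), HMOX1 (0.71), which degrades haem, and TLR4 (0.63) rose. Of the 26 neutrophil markers 13 were tested: MPO and ITGAM (1.01) rose, 8 fell, and 3 were not called, with a median of -1.07. The largest falls were FCGR2B (-2.74), FCGR3A (-1.63), PGLYRP1 (-1.61), NCF4 (-1.28) and NCF1 (-1.13), and the reads of MPO were those described above. Among families, PTGS2 (1.37) was called higher and PXDN (-0.44) lower beside MPO and EPX, and 3 of 3 tested lipocalins other than LCN2, APOD (-0.88), APOM (-0.52) and RBP4, fell. Macrophage markers had 1 of 11 called higher and 8 lower, T cell markers 12 of 12 lower, and liver markers 1 of 6 higher and 4 lower. Duct and surface epithelial markers had 1 of 6 higher and 3 lower, and luminal epithelial markers 12 of 14 higher. These counts too stand beside 33.1% higher and 35.2% lower over all tested genes.

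**Figure D5:**
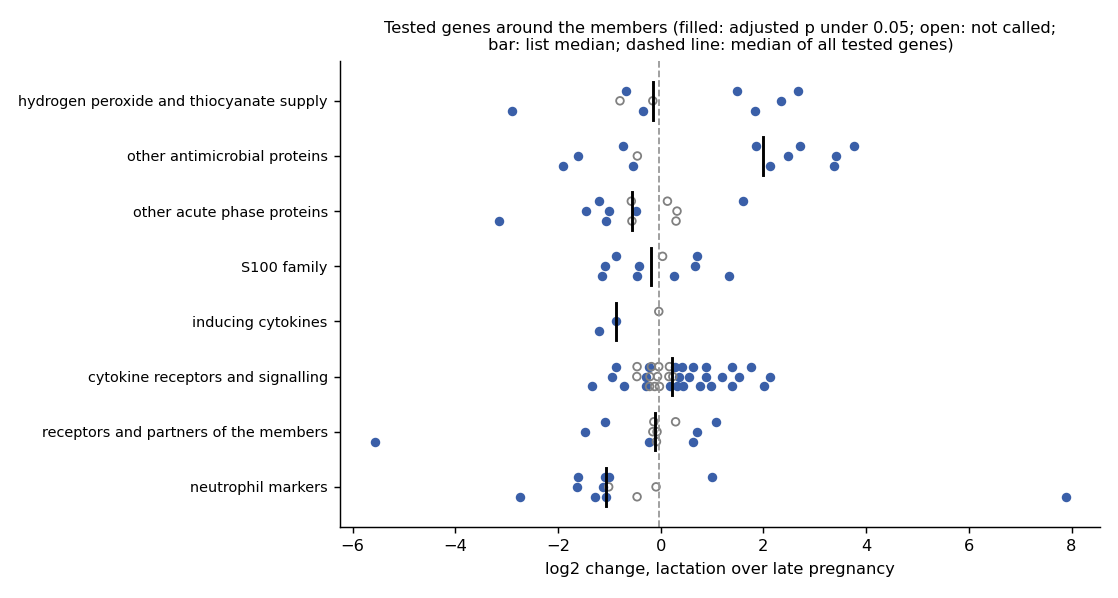
log2 change (lactation over late pregnancy) of each tested gene in 8 lists, filled where the adjusted p was under 0.05 and open where it was not; short bars are list medians and the dashed line is the median of all tested genes (-0.03). The median of the other antimicrobial proteins was 2.00, that of the other acute phase proteins -0.57 and that of the neutrophil markers -1.07, where the point near 8 is MPO.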

How the data were processed

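The authors mapped paired Illumina reads with CLC Genomics Workbench and deposited 1 table with, per gene and pool, raw counts of reads on exons, whole genes and exon junctions, RPKM, and a normalized value. The deposited score used here is the authors' RPKM after quantile normalization, and RPKM recomputed from the counts matched to within 1.9e-06 of its size. The authors' fold changes and p-values in the table were not used. Counts on exons (whole gene for 5583 features without a transcript) were fitted with edgeR 4.0.16 in R 4.3.3 (filterByExpr, TMM, quasi-likelihood F-test, Benjamini-Hochberg over all tested genes, threshold 0.05). The steps were tested on simulated data. Members and lists were chosen with earlier results of these data known. Of each list, called genes were named first by size of change, at most 6 in full; further genes were named after their values were seen. Likeness used genes with a mean CPM of at least 1, and junction shares at least 100 reads per state. Alternatives were other scalings (library size, upper quartile, DESeq2 size factors), DESeq2 1.42.0, no filter or 10 reads in every library, unique reads, limma 3.58.1 on log2(quantile-normalized RPKM + 1), a pool number block, dam feed as covariate, each library left out and, added after seeing the data, junction reads and the lane named in the column headings. Ewes were sampled in both states, but nothing says which pools share ewes. The main fits therefore treat the pools as independent, and p-values measure the spread between pools. Counts carry no molecular identifiers. Promoter motifs were not analysed here.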

Additional observations from a re-analysis of the deposited data

Results flagged for a closer look

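Among the 7 members and 44 named list genes, 11 values had a highest or lowest pool far from the rest of its state (gap over range above Dixon's 95% critical value); chance flags about 1 group in 20, and 102 groups were looked at. HM lactation 1 was the pool in 5 of them. It was the highest for LOC554321 (gap 0.892 of the range), SAA1 (0.852), HP (0.945) and FCGR2B (0.668, 185 against 126 CPM), and the lowest for MPO (0.878). The first 3 were chosen with that pool in view. HP was also apart in LM late pregnancy 2 (0.730, 19.4 against 6.79 CPM). FCGR3A was highest in MM lactation 2 (0.650), APOA1 in HM late pregnancy 3 (0.549) and in MM lactation 1 (0.680), and BPIFA1 in HM late pregnancy 1 (0.541), while CD14 was lowest in HM lactation 2 (0.669).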

How the results depend on the processing

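LPO, LCN2 and SAA1 kept their direction under every alternative run. Of 1123 values for 44 named list genes, 1089 kept direction and call, 16 lost the call, 1 gained it and 17 changed sign. Scaling by library size only gave 352 genes higher and 12705 lower between states, 7 called for dam feed in lactation, and log2 changes of 7.24 for LPO, 1.63 for LCN2, 3.23 for SAA1 and -1.08 for LOC554321 (-0.45 in limma). Under it the sign changed for S100A2 (-0.57), S100A5 (-1.19), S100A10 (-1.24), LY96 (-0.14), IL6R (-0.39), SOCS3 (-0.50), MYD88 (-0.52), SLC5A5 (-0.078), XDH (-0.41), SERPINA1 (-0.28), ASGR1 (-0.83), HMOX1 (-1.20) and TLR4 (-1.28), against an all-gene median of -1.94. Higher and lower genes were then 2 and 6 (peroxide and thiocyanate), 0 and 11 (acute phase), 0 and 10 (S100), 0 and 34 (signalling) and 0 and 12 (receptors), with 4 antimicrobial genes and 1 neutrophil marker higher. Upper quartile scaling gave 5 lower peroxide and thiocyanate genes, 2 higher S100 genes, and 13 and 7 lower signalling and receptor genes. DESeq2 called 20, 36 and 21 genes for dam feed in late pregnancy, in lactation and in the test of dependence. No filter gave 391 and 2 in the latter tests, 3 higher acute phase genes and 4 higher neutrophil markers. Requiring 10 reads in every library left 3 lower acute phase genes, 0 higher and 5 lower neutrophil markers and 0 lower cytokines, from fewer genes tested. limma called 0 genes for dam feed in lactation, and so did the named lane as covariate (added after seeing the data) and junction reads, the latter with 3 lower S100 genes, 1 higher neutrophil marker, 1 lower cytokine and 7.31 for SAA1. For the other changes the cause was not tested.

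The deviations of same-numbered pools correlated at -0.025 to 0.068 over 6 pairs. These values show no pairing by number, but they cannot tell whether pools of the 2 states share ewes. With the replicate number as a block, dam feed in lactation had 2 calls, 1 cytokine and 4 signalling genes were lower, and IL1A (adjusted p = 0.0529, edgeR) and S100A5 (0.0690) were not called.

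Leaving out 1 library gave 0 to 1 calls for dam feed in late pregnancy (1 without LM late pregnancy 1), 0 to 20 in lactation, and 0 to 10 for the dependence. LOC554321 ranged from -0.94 to 1.01, HP from 0.26 to 3.15, and IL33 from -0.20 to 0.082 (0.0099, 0.050, 0.015 and 0.082 where it was positive). Higher acute phase genes numbered 1 to 2, lower cytokines 1 to 2, and lower signalling genes 4 to 9, with 4 without HM lactation 1. The smallest lactation library, HM lactation 1, had 9014506 reads, and S100A8 and S100A12 could not be compared at this depth.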
